A study of Mus musculus with 9 samples.

Results

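The genes described here encode 10 defence proteins of the gut: the Reg lectins *Reg1*, *Reg3a*, *Reg3b*, *Reg3g* and *Reg4*, and the inducible genes *Lcn2*, *Saa1*, *Saa3*, *Pigr* and *Retnlb*. They were chosen by symbol as Reg lectins and inducible antimicrobial genes, and all 10 were found among the 54838 gene identifiers of the series. The RNA came from organoids of Vil-CreERT2;Mettl3 fl/fl mice, where 4-hydroxytamoxifen (4-OHT) switches on a Cre recombinase driven by the villin promoter. That recombinase removes the floxed stretch of *Mettl3*, the catalytic subunit of the m6A RNA methyltransferase. Necrostatin-1 (Nec-1) is an inhibitor of the kinase RIPK1.

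Reg proteins are small secreted C-type lectins, and in the small intestine the Reg3 lectins bind bacteria and help to keep them away from the epithelial surface. Their genes, and those of lipocalin-2 and serum amyloid A, respond to microbes and to cytokines such as IL-22, while the polymeric immunoglobulin receptor carries IgA across the epithelium into the lumen. In the intact gut these proteins are made by different epithelial cells, with Reg3 lectins in Paneth cells and enterocytes, *Reg4* in enteroendocrine and other secretory cells, and *Retnlb* in goblet cells.

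Every group carried Vil-CreERT2 and both floxed *Mettl3* alleles. EtOH DMSO (2 libraries) received the vehicles ethanol for 2 days and DMSO for 5 days, and EtOH Nec-1 (2 libraries) received ethanol and, for 5 days, Nec-1. 4-OHT DMSO (2 libraries) received 500 nM 4-OHT for 2 days and DMSO for 5 days, and 4-OHT Nec-1 (1 library) received the same 4-OHT and Nec-1. A legend gives Nec-1 as 5 µM and the methods give 10 µM. No Cre-free group received 4-OHT, so 4-OHT and the deletion cannot be told apart. *Mettl3*, the targeted gene, was at 2.70 and 2.71 FPKM in the EtOH DMSO libraries, 2.41 and 2.47 in those of EtOH Nec-1, 3.72 and 4.14 in those labelled 4-OHT DMSO and 3.36 in that labelled 4-OHT Nec-1. It was higher in each library labelled 4-OHT than in any EtOH library. FPKM (fragments scaled to transcript length and to mapped fragments) covers the whole gene and no exon, and each direction given here rests on the labels. Nothing in the labels says that the libraries of a group are separate cultures or animals. A p-value therefore weighs a difference only against the spread between libraries within groups, taken over all groups of 2 libraries.

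Groups of 2 libraries were tested with limma on log2(FPKM + 1), over 12702 genes that reached 1 FPKM in 2 or more libraries, with Benjamini-Hochberg adjustment over all of them and a threshold of 0.05. Fragment counts are not known, and the most common ratio of low values gave depths of 0.847 to 1.03 relative to EtOH DMSO library 1. Of the 10 genes, *Reg1*, *Reg3a*, *Reg3b*, *Reg3g*, *Reg4* and *Pigr* passed this filter. *Lcn2*, *Saa1*, *Saa3* and *Retnlb* were under 1 FPKM in all 7 libraries and are described by their values. The added 1 FPKM makes log2 fold changes of low genes understate the ratio of their values.

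In EtOH DMSO, without 4-OHT or Nec-1, *Pigr* had the highest mean of the 10 genes (645 FPKM, rank 101 among all genes), followed by *Reg4* (136, rank 427), *Reg1* (35.7), *Reg3g* (27.3), *Reg3a* (17.4) and *Reg3b* (4.68). Among these 6 genes only *Reg1* and *Reg3g* overlapped, at 28.1 to 43.3 and 25.4 to 29.3 FPKM. *Saa3* (0.199 FPKM), *Saa1* (0.105) and *Lcn2* (0.0375) lay far below, and *Retnlb* was at 0. The order differed in the libraries labelled 4-OHT DMSO, where *Reg3g* (112 FPKM, rank 507, compared with 1865 in EtOH DMSO) was far above *Reg1* (12.0), and *Reg3b* (7.81) and *Reg3a* (7.04) overlapped. *Pigr* (362 FPKM) and *Reg4* (332) were then close, at ranks 165 and 176, without overlap. In EtOH Nec-1 none of the 6 genes overlapped, with *Pigr* at a mean of 631, *Reg4* at 212, *Reg3g* at 14.0, *Reg1* at 7.98, *Reg3a* at 4.74 and *Reg3b* at 1.69 FPKM.

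**Figure D1:**
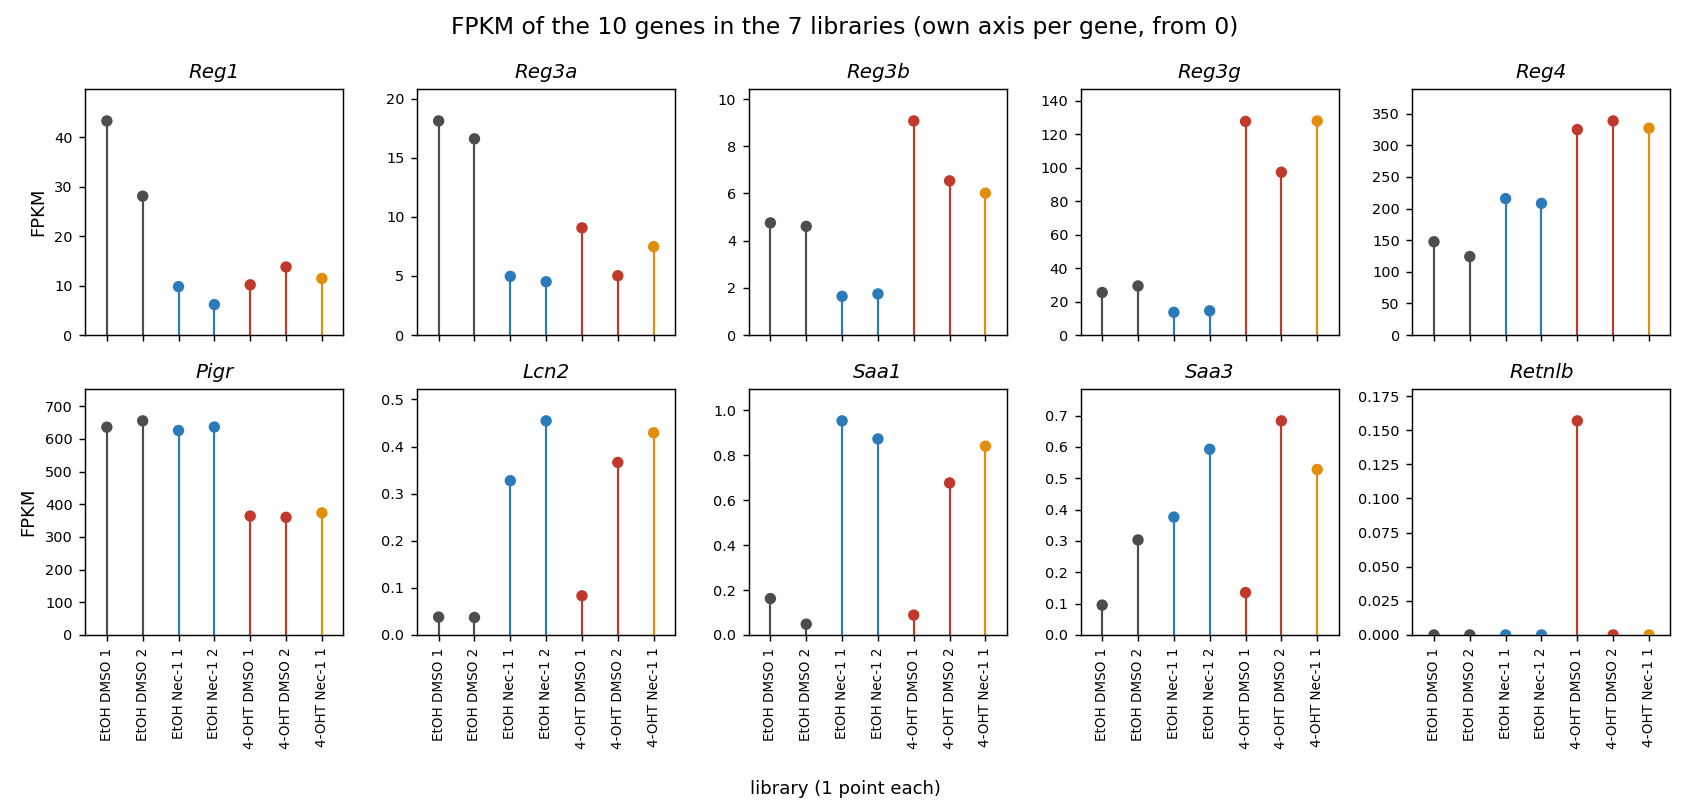
FPKM of each of the 10 genes in each of the 7 libraries, with 1 point per library and an axis from 0 of its own for each gene. *Reg3g* and *Reg4* are highest in the libraries labelled 4-OHT and *Reg1* and *Reg3a* in EtOH DMSO, while *Pigr* is at 359.8 to 373 FPKM in the libraries labelled 4-OHT and at 625 to 655 in the others.

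*Reg3g* (ENSMUSG00000030017), a lectin that kills Gram-positive bacteria by binding their peptidoglycan, had the largest log2 fold change of the 6 genes between EtOH DMSO and 4-OHT DMSO. It was at 25.4 and 29.3 FPKM in the EtOH DMSO libraries, 13.6 and 14.5 in those of EtOH Nec-1, 127.55 and 97.2 in those labelled 4-OHT DMSO and 127.82 in that labelled 4-OHT Nec-1. All 3 libraries labelled 4-OHT were thus above the 4 EtOH libraries, and the EtOH Nec-1 libraries were the lowest of the 7. Between EtOH DMSO and 4-OHT DMSO *Reg3g* rose by 1.99 in log2 units (standard error 0.15, limma adjusted p = 0.000822), or 4.11 times in mean FPKM. With Nec-1 in EtOH organoids it differed by -0.91 (standard error 0.15, limma adjusted p = 0.134), which did not pass the threshold although the groups did not overlap. The library labelled 4-OHT Nec-1 lay 0.39 log2 units above the second library labelled 4-OHT DMSO and level with the first.

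*Reg3b* (ENSMUSG00000071356) encodes a related lectin that acts on Gram-negative bacteria. Its values were 4.75 and 4.61 in EtOH DMSO, then 1.64 and 1.74 in EtOH Nec-1, 9.08 and 6.54 under the 4-OHT DMSO label and 6.01 under the 4-OHT Nec-1 label. The 3 groups of 2 libraries did not overlap, with EtOH Nec-1 lowest and 4-OHT DMSO highest. *Reg3b* rose by 0.62 between EtOH DMSO and 4-OHT DMSO (standard error 0.15, limma adjusted p = 0.0259), or 1.67 times in mean FPKM. The call depended on the settings, since median centring of each library gave 0.46 (limma adjusted p = 0.0639) and the limma adjusted p of *Reg3b* ran from 0.00807 to 0.0983 over all alternatives. The call was also lost with no filter on low values (limma adjusted p = 0.0793) and with only the 4 libraries compared (limma adjusted p = 0.0548). Leaving out either EtOH DMSO library or either EtOH Nec-1 library lost it too. So did leaving out the first library labelled 4-OHT DMSO, where *Reg3b* differed by 0.41. With Nec-1 in EtOH organoids *Reg3b* differed by -1.08 (standard error 0.15, limma adjusted p = 0.106). In the library labelled 4-OHT Nec-1 it differed by -0.52 and -0.10 from the libraries labelled 4-OHT DMSO, below both.

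*Reg3a* (ENSMUSG00000079516) encodes another secreted lectin of the Reg3 subfamily. It was at 18.1 and 16.6 FPKM in the EtOH DMSO libraries, 4.96 and 4.51 in those of EtOH Nec-1, 9.07 and 5.02 in those labelled 4-OHT DMSO and 7.48 in that labelled 4-OHT Nec-1. Both EtOH DMSO libraries were above the other 5, and 4-OHT Nec-1 lay between the libraries labelled 4-OHT DMSO. *Reg3a* fell by 1.24 between EtOH DMSO and 4-OHT DMSO (standard error 0.24, limma adjusted p = 0.0124), with 2.47 times as much mean FPKM in EtOH DMSO. The call was lost with no filter on low values (limma adjusted p = 0.0553) and without the first or the second EtOH DMSO library (limma adjusted p = 0.0694 and 0.0548), in a range of 0.00130 to 0.0694 over all alternatives. Nec-1 in EtOH organoids went with a log2 fold change of -1.68 for *Reg3a* (standard error 0.24, limma adjusted p = 0.110).

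*Reg1* (ENSMUSG00000059654) encodes the lithostathine first described in regenerating pancreatic islets. Its values were 43.3 and 28.1 in EtOH DMSO, then 9.80 and 6.16 in EtOH Nec-1, 10.2 and 13.8 under the 4-OHT DMSO label and 11.45 under the 4-OHT Nec-1 label. The EtOH DMSO libraries were the highest, and they lay further apart in FPKM than the 3 libraries labelled 4-OHT. *Reg1* fell by 1.48 between EtOH DMSO and 4-OHT DMSO (standard error 0.29, limma adjusted p = 0.0127), with 2.98 times as much mean FPKM in EtOH DMSO. The call was lost with no filter on low values (limma adjusted p = 0.0582) and without the first EtOH DMSO library, the highest, where *Reg1* differed by -1.18 (limma adjusted p = 0.0626, in a range of 0.00998 to 0.0626 over all alternatives). With Nec-1 in EtOH organoids it had the lowest log2 fold change of the 6 genes, -2.03 (standard error 0.29, limma adjusted p = 0.110), and the groups did not overlap.

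*Reg4* (ENSMUSG00000027876), a lectin gene on chromosome 3 and a marker of secretory cells, was the most abundant Reg gene in all 7 libraries. It was at 147 and 124 FPKM in the EtOH DMSO libraries, 216 and 208 in those of EtOH Nec-1, 325 and 339 in those labelled 4-OHT DMSO and 327 in that labelled 4-OHT Nec-1. The 3 groups of 2 libraries did not overlap, EtOH Nec-1 lay between EtOH DMSO and the libraries labelled 4-OHT, and the value under the 4-OHT Nec-1 label was between those under the 4-OHT DMSO label. *Reg4* rose by 1.29 between EtOH DMSO and 4-OHT DMSO (standard error 0.11, limma adjusted p = 0.00101), or 2.44 times in mean FPKM, and passed under every alternative, at 1.13 to 1.41. With Nec-1 in EtOH organoids it differed by 0.64 (standard error 0.11, limma adjusted p = 0.134), the highest of the 6 genes.

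*Pigr* (ENSMUSG00000026417) encodes the receptor that takes up IgA and IgM joined by the J chain and releases them into the lumen. Its values were 636 and 655 in EtOH DMSO, then 625 and 636 in EtOH Nec-1, 364 and 359.8 under the 4-OHT DMSO label and 373 under the 4-OHT Nec-1 label. The 4 EtOH libraries lay together, and the 3 libraries labelled 4-OHT lay together below them. *Pigr* fell by 0.83 between EtOH DMSO and 4-OHT DMSO (standard error 0.08, limma adjusted p = 0.00139), with 1.78 times as much mean FPKM in EtOH DMSO, and stayed between -0.99 and -0.81 over the alternatives. In EtOH organoids with Nec-1 *Pigr* differed by -0.03 (standard error 0.08, limma adjusted p = 0.894).

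**Figure D2:**
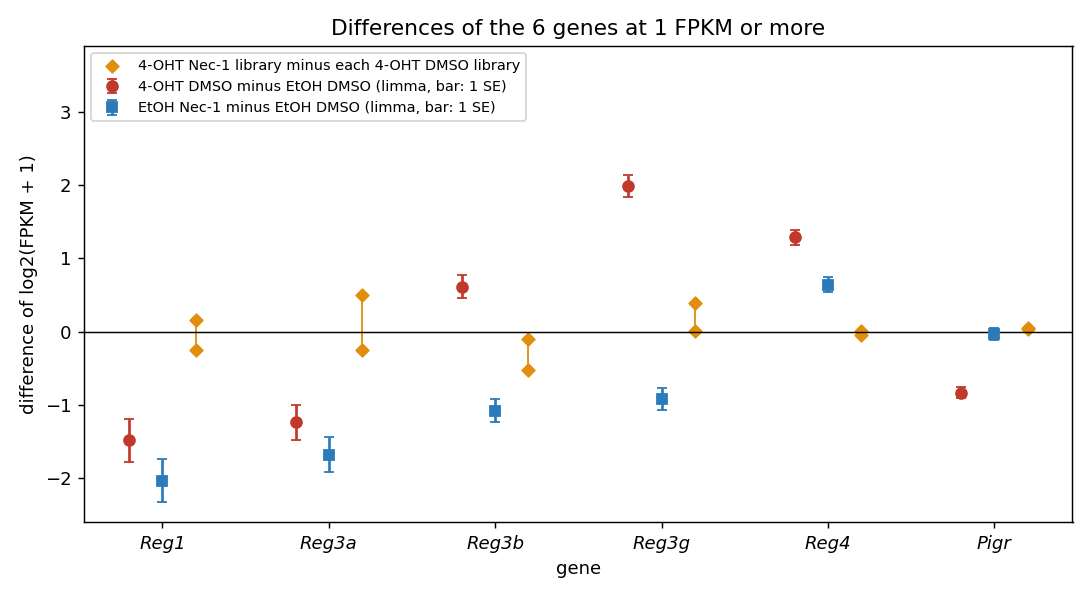
Differences of log2(FPKM + 1) for the 6 genes tested: limma log2 fold changes with bars of 1 standard error, and the library labelled 4-OHT Nec-1 minus each library labelled 4-OHT DMSO. *Reg3g* is at 1.99 for 4-OHT and -0.91 for Nec-1 in EtOH organoids, while *Reg1* and *Reg3a* are below 0 in both.

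By limma all 6 genes tested passed the threshold between EtOH DMSO and 4-OHT DMSO. *Reg3b*, *Reg3g* and *Reg4* were among the 24.5% of 12702 genes called higher, and *Reg1*, *Reg3a* and *Pigr* among the 16.7% called lower. The median log2 fold change was -0.11 over the 6 genes and 0.08 over all genes tested. Centring each library on its median shifted that comparison by -0.16 and gave 2213 genes called higher and 3187 lower, in place of 3117 and 2120, while none of the 6 genes changed direction. In bulk RNA, fewer cells of a type and less RNA per cell cannot be told apart.

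With Nec-1 in EtOH organoids limma called 0 of the 6 genes, beside 0.173% of all genes called higher and 0.0472% lower. At an unadjusted p under 0.05 limma counted 5 of the 6 genes, all but *Pigr*, and 1689 of all genes. *Reg1*, *Reg3a*, *Reg3b* and *Reg3g* were each lower in every EtOH Nec-1 library than in any of EtOH DMSO, and *Reg4* was higher. Such a lack of overlap is common, since 39.1% of the 12702 genes were lower in this way and 10.5% higher, and 71.6% did not overlap in either direction between EtOH DMSO and 4-OHT DMSO. The main fit also drew its spread from the libraries labelled 4-OHT DMSO, which are not part of this comparison. With only the 4 libraries compared in the fit, *Reg3a*, *Reg3b* and *Reg3g* passed (limma adjusted p = 0.00720, 0.0353 and 0.0457), as did 59 genes higher and 20 lower among all those tested. Over all alternatives the limma adjusted p ran from 0.00610 to 0.537 for *Reg3a*, from 0.0268 to 0.564 for *Reg3b* and from 0.0391 to 0.681 for *Reg3g*. The study's criterion is p under 0.05 and 1 log2 unit, and its p was taken here as unadjusted. By it *Reg1*, *Reg3a* and *Reg3b* passed, among 61 genes higher and 29 lower of the 12702. *Reg1* and *Reg4* passed the adjusted threshold under no alternative, with lowest limma adjusted p of 0.0695 and 0.0988. Both limma comparisons share the EtOH DMSO libraries.

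The library labelled 4-OHT Nec-1 has no replicate, so its values have no replicate check and no test. None of the 6 genes lay 1 log2 unit or more from each library labelled 4-OHT DMSO, while 1.21% of 12036 genes lay that far below and 0.764% above. These shares depend on single libraries, since the 146 genes below and 92 above became 543 and 247 without the first library labelled 4-OHT DMSO and 244 and 181 without the second. With median centring 115 genes lay below and 119 above, so the larger count changed sides. *Reg3g* and *Pigr* were above both libraries labelled 4-OHT DMSO, *Reg3b* was below both, and *Reg1*, *Reg3a* and *Reg4* were between them. Of the 12036 genes 24.5% were above both and 50.6% below both. This comparison shares the libraries labelled 4-OHT DMSO with that of 4-OHT. Differences from the mean of the 2 libraries ran from -0.31 for *Reg3b* to 0.20 for *Reg3g*. The gap between the Nec-1 differences in EtOH and 4-OHT organoids was not tested.

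Ratios of genes within a library do not depend on its scaling. *Reg3g* was at 1.40 and 1.76 times the FPKM of *Reg3a* in EtOH DMSO, 2.73 and 3.21 times in EtOH Nec-1, 14.1 and 19.4 times under the 4-OHT DMSO label and 17.1 times under the 4-OHT Nec-1 label. The libraries labelled 4-OHT were all above the EtOH libraries, and EtOH Nec-1 was above EtOH DMSO. *Reg3b* was at 0.262 and 0.277 times *Reg3a* in EtOH DMSO, at 0.330 and 0.387 times in EtOH Nec-1, 1.00 and 1.303 times under the 4-OHT DMSO label and 0.804 times under the 4-OHT Nec-1 label. Here the library labelled 4-OHT Nec-1 was below both labelled 4-OHT DMSO. *Reg4* was at 0.232 and 0.189 times *Pigr* in EtOH DMSO and at 0.876 to 0.941 times in the libraries labelled 4-OHT, without overlap.

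**Figure D3:**
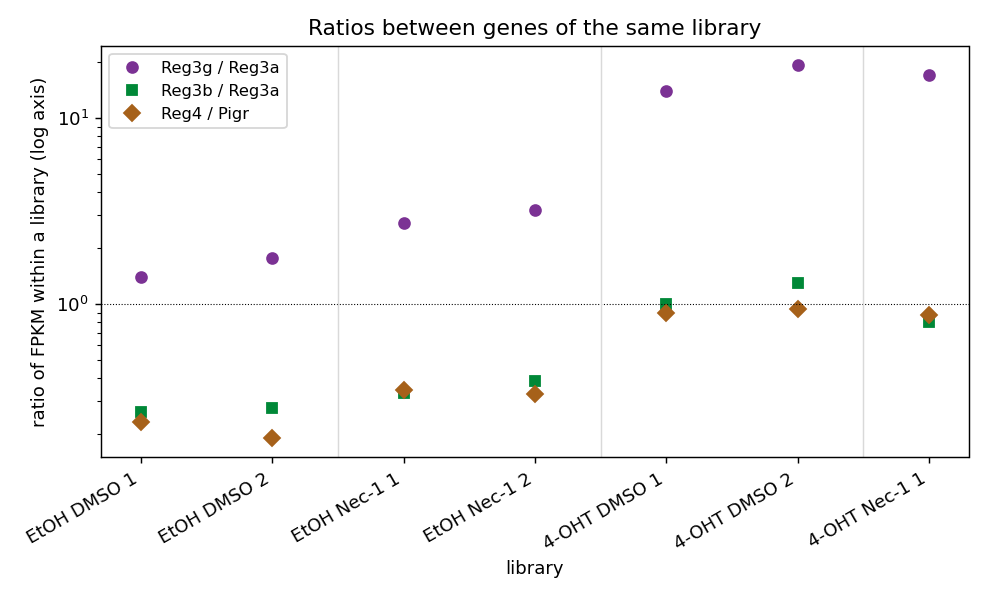
Ratio of the FPKM of 2 genes within each of the 7 libraries, on a log axis. *Reg3g* is at 1.40 to 3.21 times *Reg3a* in the EtOH libraries and at 14.1 to 19.4 times in the libraries labelled 4-OHT.

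The 5 Reg genes summed to 239 and 203 FPKM in the EtOH DMSO libraries, 246 and 235 in those of EtOH Nec-1, 481 and 461 in those labelled 4-OHT DMSO and 479.85 in that labelled 4-OHT Nec-1. Thus the EtOH libraries with and without Nec-1 had close sums, but *Reg4* made up 61.7% and 61.2% of the sum in EtOH DMSO and 87.8% and 88.6% in EtOH Nec-1. *Reg3g* made up 10.6% and 14.5% in EtOH DMSO, only 5.52% and 6.15% in EtOH Nec-1 and 21.1% to 26.6% in the libraries labelled 4-OHT.

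*Reg1*, *Reg3a*, *Reg3b* and *Reg3g* lie with *Reg3d* and *Reg2* in 98.0 kb of chromosome 6. *Reg3b*, which was higher under the 4-OHT DMSO label, starts 9.82 kb from *Reg3a*, which was lower, and *Reg3d* lies between them. *Reg3d* was at 0.519 and 0.496 FPKM in the EtOH DMSO libraries, 0.189 and 0.567 in those of EtOH Nec-1, 1.24 and 1.44 in those labelled 4-OHT DMSO and 1.37 in that labelled 4-OHT Nec-1. It was higher in all libraries labelled 4-OHT, by 0.63 between EtOH DMSO and 4-OHT DMSO (standard error 0.17, limma adjusted p = 0.0339), but it reached 1 FPKM only in those libraries, through which it passed the filter, and the call was lost with no filter (limma adjusted p = 0.0820) and in 7 of 13 alternatives in all, which ran from 0.0244 to 0.114. *Reg2* was at 0.158 FPKM in the first EtOH DMSO library and at 0 in the other 6. Because *Reg3a*, *Reg3b*, *Reg3g* and *Reg3d*, like *Saa1* and *Saa2*, are similar in sequence, the authors' quantification may have shared fragments between them.

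**Figure D4:**
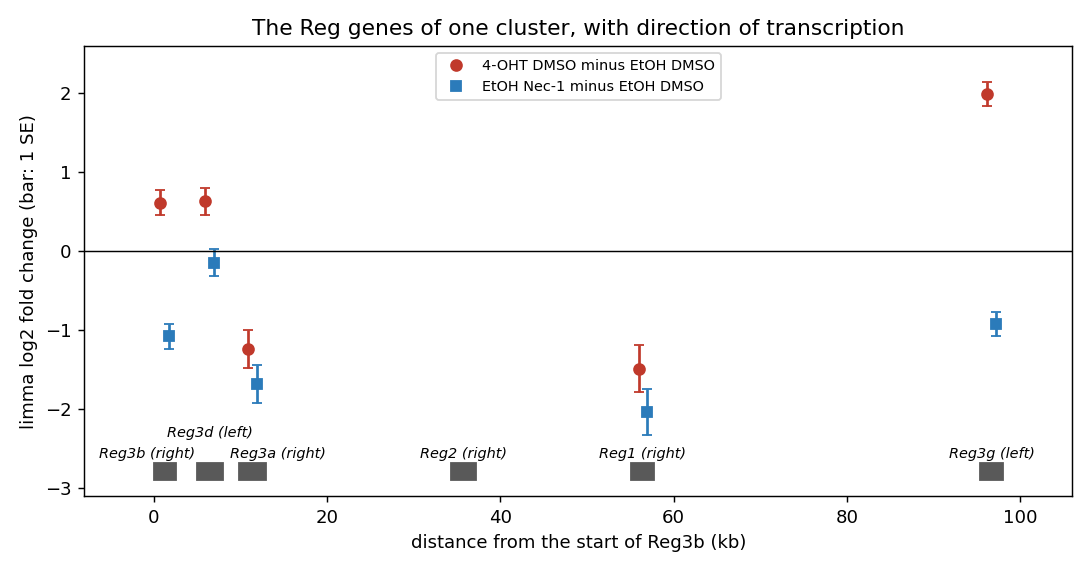
The Reg genes of chromosome 6 by distance from the start of *Reg3b* in kb, with limma log2 fold changes and bars of 1 standard error above them. For 4-OHT, *Reg3b* and *Reg3d* are above 0 and *Reg3a*, next to them, is below 0, and *Reg3g*, 95.4 kb away, is highest.

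The 100 bases upstream of the transcription starts listed for these neighbours are shown, 5′ to 3′ on the strand of the gene, from RefSeq on GRCm38.p6, with capitals for the letters TATAAA. They are chr6:78468875-78468974 on the minus strand for *Reg3g*, and on the plus strand chr6:78370785-78370884 for *Reg3b*, chr6:78380609-78380708 for *Reg3a* and chr6:78425883-78425982 for *Reg1*.
Reg3g: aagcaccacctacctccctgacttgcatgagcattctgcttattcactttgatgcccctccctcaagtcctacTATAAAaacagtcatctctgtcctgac
Reg3b: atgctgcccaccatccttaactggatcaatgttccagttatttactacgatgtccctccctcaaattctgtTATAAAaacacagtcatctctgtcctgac
Reg3a: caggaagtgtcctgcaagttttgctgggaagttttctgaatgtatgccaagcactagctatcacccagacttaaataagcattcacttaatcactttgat
Reg1: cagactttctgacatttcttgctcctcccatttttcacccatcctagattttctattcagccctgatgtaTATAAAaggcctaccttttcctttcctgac
TATAAA begins 27 bases upstream of *Reg3g*, 29 of *Reg3b* and 30 of *Reg1*, and these letters are not in the 250 bases upstream of the start listed for *Reg3a*. The sequence shown for *Reg3a* ends in tcactttgat, and these letters also stand inside that of *Reg3g*, upstream of its TATAAA. The listed starts of these genes may therefore not lie at matching places, and the absence for *Reg3a* holds only for this window. Bases after the listed starts were not searched, and whether these starts lie at matching places in the 4 genes was not tested. On either strand TATAAA is in 12.4% of 32851 windows of 250 bases. Over 250 bases *Reg3b* and *Reg3g* were identical at 68.9% of aligned positions, and the other pairs of these 4 genes at 47.9% to 53.5%. *Reg4*, on chromosome 3, gave 49% to 50.2% with the same genes, so these other pairs were near the level of a gene outside the cluster. The shares also depend on where the listed starts lie. A STAT form, TTCNNNGAA (7.02% of windows), is upstream of *Reg3b*, and an AP-1 form, TGANTCA (6.75%), is upstream of *Reg1*. A C/EBP form, TTGCNNAA (9.56%), is upstream of *Reg3a*, *Lcn2*, *Saa1* and *Saa3*. These matches describe the letters only.

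*Lcn2* (ENSMUSG00000026822) encodes lipocalin-2, which withholds iron from bacteria by binding their siderophores. It was at 0.0379 and 0.0371 FPKM in the EtOH DMSO libraries, 0.327 and 0.454 in those of EtOH Nec-1, 0.0831 and 0.366 in those labelled 4-OHT DMSO and 0.429 in that labelled 4-OHT Nec-1. The EtOH Nec-1 libraries, the second library labelled 4-OHT DMSO and that labelled 4-OHT Nec-1 were high, and the first library labelled 4-OHT DMSO was near EtOH DMSO. *Saa1* (ENSMUSG00000074115), an acute-phase protein carried by high-density lipoprotein, had values of 0.162 and 0.0480 in EtOH DMSO, then 0.953 and 0.873 in EtOH Nec-1, 0.0882 and 0.677 under the 4-OHT DMSO label and 0.841 under the 4-OHT Nec-1 label. The same libraries were high and low as for *Lcn2*. *Saa3* (ENSMUSG00000040026), the serum amyloid A gene used mostly outside the liver, was at 0.0953 and 0.303 FPKM in the EtOH DMSO libraries, 0.376 and 0.593 in those of EtOH Nec-1, 0.135 and 0.683 in those labelled 4-OHT DMSO and 0.528 in that labelled 4-OHT Nec-1. Again the first library labelled 4-OHT DMSO was low and the second high, and EtOH Nec-1 was above EtOH DMSO. *Retnlb* (ENSMUSG00000022650), a resistin-like protein of goblet cells, was at 0.157 FPKM in the first library labelled 4-OHT DMSO and at 0 in the other 6.

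With no filter on low values none of these 4 genes passed, with limma adjusted p of 0.354 to 0.612 between EtOH DMSO and 4-OHT DMSO and of 0.424 to 1 for Nec-1 in EtOH organoids. The libraries labelled 4-OHT DMSO differed from each other in *Lcn2*, *Saa1* and *Saa3* by more FPKM than either EtOH pair.

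The sum of 12 liver acute-phase genes, chosen after these values were seen, was high and low in the same libraries as *Saa1* and *Lcn2*. It was 2.99 and 1.77 FPKM in the EtOH DMSO libraries, 10.9 and 12.5 in those of EtOH Nec-1, 2.01 and 10.1 in those labelled 4-OHT DMSO and 11.5 in that labelled 4-OHT Nec-1. Apart from *Cp*, *Orm2* and *Apcs*, each gene of the list was higher in every one of the 4 libraries with a high sum than in the other 3. The most abundant, the heme carrier *Hpx*, had 0.530 and 0.507 in EtOH DMSO, then 1.69 and 2.26 in EtOH Nec-1, 0.728 and 1.47 under the 4-OHT DMSO label and 2.04 under the 4-OHT Nec-1 label, and *Saa2*, next to *Saa1*, was at 0.0217 FPKM in the first library labelled 4-OHT DMSO and 0.894 in the second. Limma tested 7 of them and called 0 in either comparison, beside 24.5% of all genes higher and 16.7% lower for 4-OHT. The 10 other hepatocyte genes, chosen at the same time, summed to 30.9 and 24.4 FPKM in EtOH DMSO and to 16.9 to 27.5 in the other libraries, with *Alb* at 6.06 to 10.8, and limma called 1 of 5 tested higher for 4-OHT, beside the same shares. What sets the libraries apart in *Lcn2*, *Saa1* and *Saa3* was not tested. Since this sum set EtOH Nec-1 above EtOH DMSO without overlap, whatever it reflects cannot be told apart from Nec-1 in the differences given for *Reg1*, *Reg3a*, *Reg3b*, *Reg3g* and *Reg4* between these groups. The second library labelled 4-OHT DMSO and that labelled 4-OHT Nec-1 also had a high sum. The part of whatever it reflects in the comparisons that use these libraries was not tested.

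**Figure D5:**
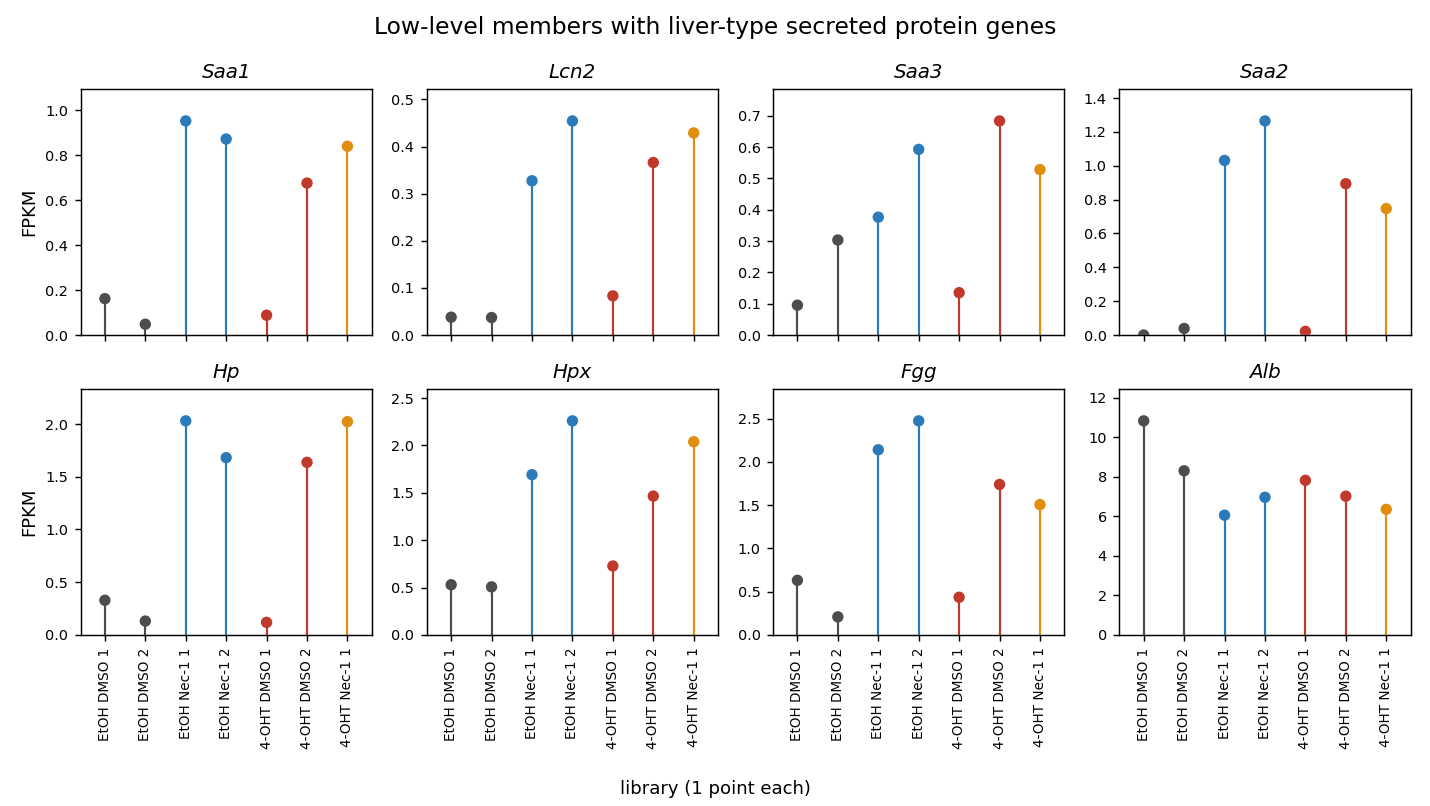
FPKM by library, each gene on its own axis from 0, for *Saa1*, *Lcn2*, *Saa3*, the liver acute-phase genes *Saa2*, *Hp*, *Hpx* and *Fgg*, and *Alb*. *Saa1* is at 0.0882 FPKM in the first library labelled 4-OHT DMSO and at 0.677 in the second.

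Genes of proteins that bind the members were partly silent. *Extl3*, a proposed Reg receptor, ranged from 3.43 to 4.57 FPKM with overlapping groups (limma adjusted p = 0.723 for 4-OHT). For lipocalin-2 encoded by *Lcn2*, the receptor gene *Lrp2* and the partner *Mmp9* were at 0 in all libraries and *Slc22a17* did not pass 0.181 FPKM. *Jchain*, which links the IgA that *Pigr* carries, did not pass 0.214 FPKM, and *Fpr2*, a serum amyloid A receptor, 0.104. *Apoa1*, of the lipoprotein that carries *Saa1*, was at 199 and 183 FPKM in the EtOH DMSO libraries, 114 and 102 in those of EtOH Nec-1, 293 and 291 in those labelled 4-OHT DMSO and 179 in that labelled 4-OHT Nec-1. It rose by 0.61 between EtOH DMSO and 4-OHT DMSO (standard error 0.09, limma adjusted p = 0.00548), while *Apoa2* ranged from 1.23 to 4.93 FPKM.

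Of 21 other inducible defence genes tested, limma called 15 higher and 2 lower under the 4-OHT DMSO label, beside 24.5% and 16.7% of all genes, and 0 with Nec-1 in EtOH organoids. Of the genes called higher 3 are also on the lists of Paneth or goblet cell genes and are counted in both places. Of the 15, 4 (*Reg3d* among them) reached 1 FPKM in fewer than 2 EtOH libraries and so entered through the libraries labelled 4-OHT, and 3 of these, all but *Reg3d*, passed limma with no filter. *Duoxa2*, *Mptx2* and *Lypd8* rose by 3.499, 3.29 and 2.68 (limma adjusted p = 0.000275, 0.00137 and 0.000449). *Il18* and *Nlrp6* fell (limma adjusted p = 0.00296 and 0.00967). *Lypd8* was at 3051 and 4071 FPKM under the 4-OHT DMSO label and at 745 under the 4-OHT Nec-1 label. Of the members called higher, *Reg3b* was also below both libraries labelled 4-OHT DMSO, and *Reg3g* and *Reg4* were not, beside 50.6% of all genes below both. *S100a8*, *Camp* and *Retnlg* were at 0.

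Of the cytokine ligands listed, *Il22*, *Il6*, *Il17a*, *Il13* and *Il25* were at 0 in all libraries. *Tnf* and *Lif* were higher under the 4-OHT DMSO label (limma adjusted p = 0.000603 and 0.000469). *Il33* was tested only because it reached 1 FPKM in the libraries labelled 4-OHT DMSO, where it was higher (limma adjusted p = 0.0164, and 0.0379 with no filter, in a range of 0.0102 to 0.0787 over alternatives). Of 28 receptors and transducers tested by limma 13 were higher, led by *Tlr2*, *Il17ra* and *Il13ra1* (1.92, 1.40 and 1.21), and *Jak2* was lower, a call lost in 6 of 14 alternatives, beside 24.5% of all genes called higher and 16.7% lower. Of the 13, 3 reached 1 FPKM only in libraries labelled 4-OHT and entered through them, and with no filter *Tlr2* and *Il17ra* passed (limma adjusted p = 0.0103 and 0.0100) and the other did not. *Stat6* was the most abundant and *Tlr9* was at 0.

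Markers of cells that make Reg3 lectins and *Reg4* also differed between EtOH DMSO and 4-OHT DMSO. Beside 24.5% of all genes called higher and 16.7% lower, limma called 9 of 11 Paneth cell genes higher, led by *Mmp7*, *Ang4* and *Defa22* (2.36, 2.20 and 1.79), with *Defa24* the most abundant (1.38). It called 9 of 9 enteroendocrine genes higher, led by *Cck*, *Chga* and *Chgb*, and 8 of 9 goblet cell genes, led by *Clca1*, *Zg16* and *Muc2*, with *Tff3* the most abundant, its call lost in 9 of 14 alternatives. Of 11 enterocyte genes 4 were higher, led by *Ada*, *Anpep* and *Krt20*, and 5 lower, led by *Alpi*, *Sis* and *Slc5a1*, with *Fabp1* the most abundant and *Apoa4* lower with Nec-1 in EtOH organoids (-1.62, limma adjusted p = 0.0102, in a range of 0.00593 to 0.140 over alternatives). The Paneth list summed to 9527 and 8642 FPKM in the EtOH DMSO libraries, 10138 and 9907 in those of EtOH Nec-1, 23616 and 23520 in those labelled 4-OHT DMSO and 17428 in that labelled 4-OHT Nec-1. The part of these cells in the differences of *Reg3g*, *Reg4*, *Reg1*, *Reg3a*, *Reg3b* and *Pigr* was not tested.

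Beside the same shares of all genes, 24.5% higher and 16.7% lower, limma called 3 of 6 stem cell genes lower (*Smoc2*, *Olfm4* and *Lgr5*; *Slc12a2* was the most abundant), 5 of 7 epithelial genes higher, led by *Cdh1*, *Vil1* and *Krt18* with *Krt8* the most abundant, and 1 of 2 tuft cell genes higher (*Avil*; *Sh2d6* was the most abundant). Of 14 alternatives each, the call of *Olfm4* was lost in 6, of *Krt8* in 9, of *Krt18* in 1 and of *Avil* in 8. Of 4 immune cell genes tested *Cd68* was higher, as was *Ly6g*, which entered through the libraries labelled 4-OHT (limma adjusted p = 0.0168 with no filter, in a range of 0.00187 to 0.0168), *Itgax* and *Nkg7* were at 0, and *Ptprc*, the leukocyte gene of CD45, did not pass 0.0497 FPKM. All 8 fibroblast genes were under 1 FPKM, with *Pdgfrb* the most abundant and *Lum* at 0. Of 9 acinar genes, from the pancreas where *Reg1* is also made, 7 were at 0 (*Prss1*, *Cpa1*, *Cpb1*, *Cela2a*, *Pnlip*, *Ptf1a* and *Amy2b*), and *Cela1* was at 3.95 to 7.76 FPKM.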

How the data were processed

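The authors deposited FPKM, 1 value per Ensembl gene and library. The submitters' notes list HISAT2 2.1.0, StringTie 1.3.3b and mm10 without their roles. Another table held 2 second copies of libraries, equal to within 5e-06 FPKM. Of 54838 identifiers 54723 matched a symbol. The CUT&Tag samples (2) were not analysed here.

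The 7 libraries were fitted with limma 3.58.1 in R 4.3.3 with a mean-variance trend and 1 mean per group, leaving 3 residual degrees of freedom. Depth was read from values under 0.15 FPKM. RefSeq upstream sequences (GRCm38.p6) were aligned globally with Biopython 1.88 (match 1, mismatch -1, gap opening -2, gap extension -0.5). Tables were made in Python 3.11.15 with pandas 2.3.3, numpy 2.4.6 and scipy 1.17.1, and plots with matplotlib 3.10.9.

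The members and lists were chosen with earlier results of these data known, and *Reg3d*, *Reg2*, the liver lists and the shares of genes without overlap and of genes that entered the filter through 4-OHT libraries after values were seen. Named from each list are up to 3 largest rises and falls with adjusted p under 0.05 in a limma comparison. The most abundant gene, defining genes at 0 and all binding partners are named too. *Ptprc*, *Reg3d*, *Reg2* and the genes of the liver lists were named apart from this rule. Lists cover defence genes, ligands, receptors and transducers, partners, and markers of epithelial, stem, Paneth, goblet, enteroendocrine, enterocyte, tuft, immune, fibroblast and acinar cells. Alternatives were a pseudocount of 0.1 FPKM, no filter, 1 FPKM in every library, median centring and limma without the trend. Others were only the 4 libraries compared and the replicate number as a block. The study's criterion (p under 0.05, taken as unadjusted, and 1 log2 unit) was another. Each library was also left out in turn, where a lone library is assumed to vary like the other groups.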

Additional observations from a re-analysis of the deposited data

Results flagged for a closer look

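*Reg3g* stood out because Nec-1 went with lower values in every pairing of EtOH libraries (mean log2 difference -0.91) and with higher values in both pairings of libraries labelled 4-OHT (0.20). The gap between these differences is 1.11 and was not tested. In 1 of the 4-OHT pairings the values are 127.82 and 127.55 FPKM, and 4-OHT Nec-1 has 1 library. The gap was wider for *Reg1* (-2.03 in EtOH and -0.045 in 4-OHT organoids) and *Reg3a* (-1.68 and 0.12). For both, the library labelled 4-OHT Nec-1 lay between those labelled 4-OHT DMSO, and these gaps were not tested either.

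Only the members and the genes named from the lists were searched in this way, and some genes of the lists that are not named do the same. By the same comparison *Fabp1* was lower with Nec-1 in every EtOH pairing and higher in both 4-OHT pairings, with a gap of 1.21. The opposite held for *Mmp7* (-1.02), *Defa24* (-0.67), *Krt20* (-0.58), *Ang4* (-0.47), *Il13ra1* (-0.42) and *Clca1* (-0.35). None of these gaps was tested.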

How the results depend on the processing

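Between EtOH DMSO and 4-OHT DMSO no member changed direction, and of 84 alternative log2 fold changes 71 passed the limma threshold and 13 did not (*Reg3b*, *Reg3a* and *Reg1*). Of the members 6 were called, 3 with no filter on low values, 4 by the study's criterion (*Reg3b* and *Pigr* differed by under 1 log2 unit) and 3 to 6 with a library left out. For Nec-1 in EtOH organoids 0 were called, 3 with only the 4 libraries compared, 3 by the study's criterion and 0 to 3 with a library left out. There *Pigr* turned to 0.066 with median centring (limma adjusted p = 0.869, in a range of 0.764 to 0.993). Under the 4-OHT Nec-1 label 3 of 6 members lay outside both 4-OHT DMSO libraries, as 75.1% of all genes did, and with no filter 5 of 10 did, beside 65.4% of all genes. With either library left out all 6 lie outside the 1 that remains, which the rule fixes and which says nothing of the members.

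Over all genes, 5237 calls for 4-OHT became 1364 by the study's criterion. The 28 for Nec-1 in EtOH organoids became 8 with no filter, 79 with only the 4 libraries, 90 by the study's criterion, 9 to 14 without an EtOH library and 79 without either 4-OHT DMSO library. The 146 genes at least 1 log2 unit below both 4-OHT DMSO libraries became 255 with a pseudocount of 0.1 FPKM, and 543 and 244 without the first and the second of these libraries, and the 92 above both became 247 and 181. With the replicate block limma called 6 and 0 members and 4697 and 19 genes. Deviations from group means correlated with r of -0.040, 0.0065 and -0.012 between libraries of the same number. Of 43 calls of other named genes 10 were lost in at least 1 alternative (*Apoa4*, *Avil*, *Il33*, *Jak2*, *Krt18*, *Krt8*, *Mettl3*, *Olfm4*, *Reg3d*, *Tff3*) and 0 reversed. That count of lost calls leaves out the study's criterion, which calls no change under 1 log2 unit, such as that of *Cdh1* (0.66). *Mettl3* was called higher under the 4-OHT DMSO label, by 0.41 (standard error 0.10, limma adjusted p = 0.0231). Its call was lost in 7 of 14 alternatives. With 2 libraries or 1 per group, values under 1 FPKM rest on an unknown number of fragments, and no cause of any shift was tested.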
